A study of Drosophila melanogaster with 4 samples.

Results

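Translation initiation factors are the proteins that bring the initiator tRNA, the mRNA and the ribosomal subunits together at a start codon. The genes described here were those whose symbol starts with eIF in the annotation of the array's probes. Of 44 such genes in the current gene table, 40 had a probe of their own, among 13891 features tested in all. The 40 genes divided by name into 8 of the eIF2 group, 16 of the eIF3 group, 12 of the eIF4 group and 4 others. The genes eIF1A, eIF2alpha, eIF2gamma and eIF4H1 had no probe assigned to them and were not analysed here, so of the eIF2 trimer itself the beta subunit alone was measured.

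Mutant larvae carried the invadolysin allele Inv 4Y7 and were set against wild-type Canton S larvae, with total RNA from stocks kept at 25 degrees. Each of 4 two-colour arrays held 1 mutant and 1 wild-type sample, and the series describes 4 biological replicates. Mutant RNA was labelled with Cy5 on replicates 1 and 4 and with Cy3 on replicates 2 and 3. The labels give the stage as larva and name neither the lesion of 4Y7, nor the age in days, nor how many animals made up a sample. A log ratio carries no level, so tissue markers cannot show which tissues were present, and fewer cells of a type cannot be told apart from less RNA per cell. The Invadolysin probe gave log2 ratios of -0.12, 0.11, 0.16 and 0.25 on replicates 1 to 4 (limma adjusted p = 0.761), and whether it lies in the altered part of the gene is unknown.

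Each value is a log2 ratio with the mutant on top, so a negative value means lower in the mutant. That direction is likely from the wording of the titles and is not stated. Arrays of opposite dye orientation correlated at a mean r of 0.217 over probes, which is the basis for taking all 4 ratios to run the same way. That mean rests on replicate 1, at 0.401 with replicate 2 and 0.397 with replicate 3. Without replicate 1 it was 0.0351, from 0.031 and 0.039 for replicate 4 with 2 and 3. Those pairs say little on the direction of replicate 4. Between arrays of the same dye orientation r was 0.651 for replicates 2 and 3 and 0.213 for 1 and 4. Array weights of 0.52, 5.47, 1.51 and 0.232 on replicates 1 to 4, which limma estimates from how well each array follows the others, show that the arrays were of unequal agreement.

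In the initiation pathway, eIF2 with GTP carries the initiator tRNA to the small ribosomal subunit, and eIF2B recharges eIF2 with GTP after each round. The eIF3 complex binds the small subunit, while the eIF4 proteins recognise the mRNA cap (eIF4E), unwind the 5′ end (eIF4A with eIF4B and eIF4H) and join cap, mRNA and eIF3 together (eIF4G). The factors eIF1 and eIF5 govern which codon is accepted as the start, and eIF5B then joins the large subunit. In larvae, growth through the TOR pathway and several stress responses act on these steps.

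No initiation factor gene passed the test. Among the genes below 0 on all 4 arrays, eIF4G1, eIF1, eIF2Bbeta and eIF5 had the lowest means. Under limma with Benjamini-Hochberg adjustment over all features, 0 of 40 genes passed the threshold of 0.05, while 0.396% of features were called higher and 0.425% lower. At an unadjusted p under 0.05, 6 of the 40 lay lower and 0 higher, against 11.3% of features lower and 7.91% higher. Of the 40, 9 were below 0 on all 4 arrays (22.5%, against 14.9% of features) and 2 were above 0 on all 4 (5%, against 14.0%). These counts rest on the direction of the arrays: with the sign of the Cy3 arrays turned, 4 would be below 0 on all 4 (10%, against 8.83% of features) and 1 above (2.5%, against 8.42%), and 0 of the original 9 would be among the 4. The median over the 40 genes averaged -0.14 ± 0.12 (SD of the array medians, n = 4), and that over all features 0.004 ± 0.008. On replicates 1 to 4 the 40 genes had medians of -0.21, 0.04, -0.18 and -0.22, so replicate 2 stood above 0 and the other arrays below.

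**Figure D1:**
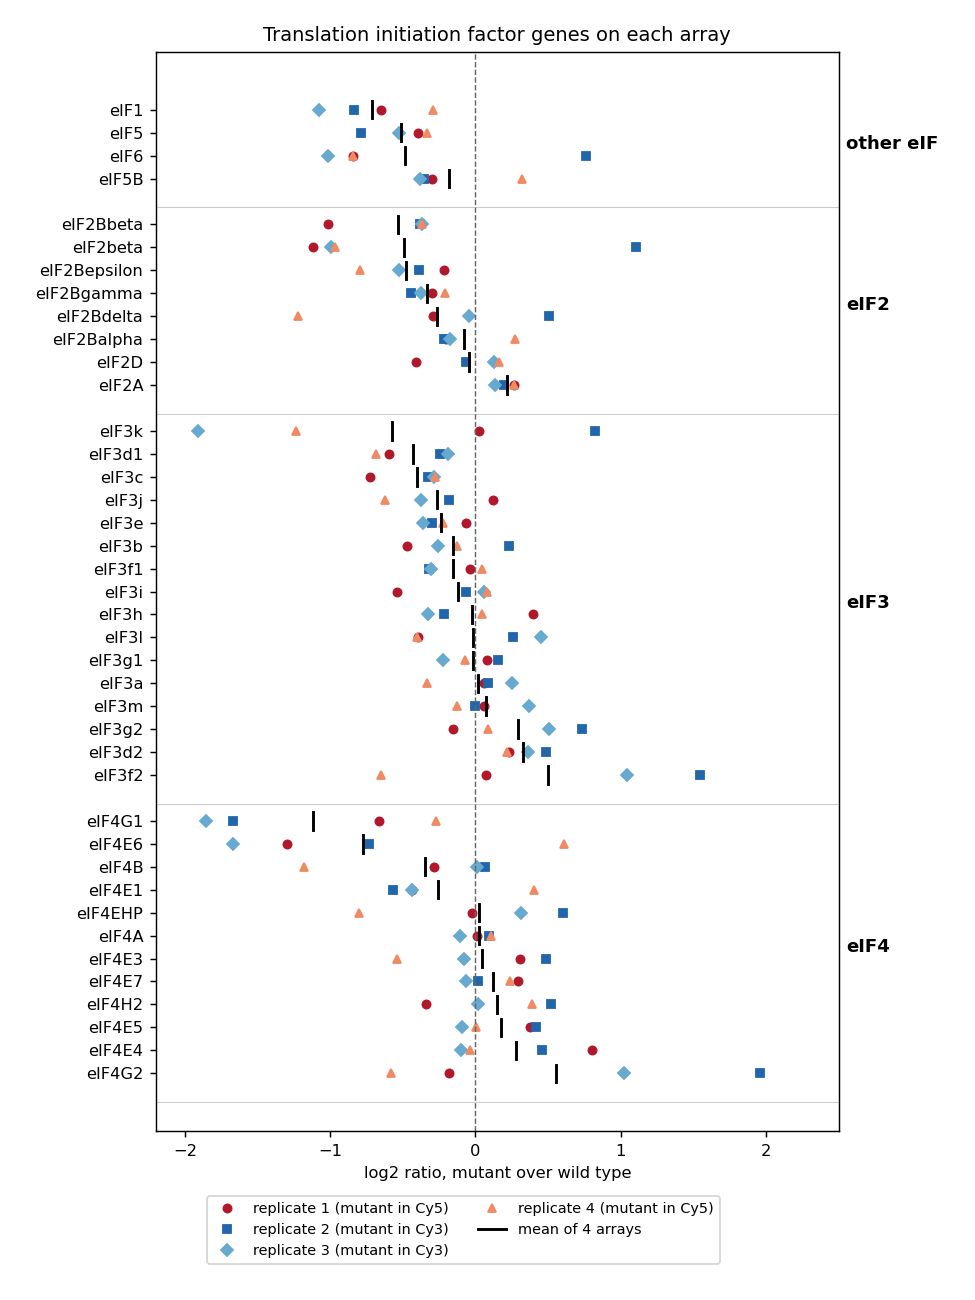
Log2 ratio of mutant over wild type (x axis) for each of the 40 initiation factor genes (y axis), by factor group; symbols are the 4 arrays, coloured by the dye of the mutant sample, and bars are their mean. The 4 symbols of eIF1, eIF5, eIF2Bgamma and eIF4G1 all lie left of 0, those of eIF2A and eIF3d2 all lie right of it, and eIF2beta and eIF6 have replicate 2 on the opposite side from the rest.

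The RNA helicase gene eIF4A gave a measure of how far values of a single gene can spread within an array, because 128 probes were annotated to it. Of the others, 37 genes had 1 probe, and eIF4B and eIF4E1 had 2. The mean over the 128 probes was 0.01, 0.09, -0.11 and 0.11 on replicates 1 to 4, a mean of 0.03 ± 0.10 (SD, n = 4, limma adjusted p = 0.943). The average over the eIF4A probes thus sat close to 0 on every array. It rests almost wholly on 126 probes of 1 repeated series, and the 2 other probes averaged -0.13 over the arrays. Individual eIF4A probes did not sit close to 0: their SD within an array was 0.34, 0.50, 0.82 and 0.50, and on replicate 3 they ran from -7.78 to 1.10. The central 95% of them lay between -0.48 and 0.89 on replicate 1, -0.71 and 0.88 on replicate 2, -0.97 and 0.80 on replicate 3, and -0.73 and 0.90 on replicate 4. Most initiation factor genes fell inside that interval.

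Of the other 39 genes, 22 were inside the eIF4A interval on all 4 arrays. On replicates 1 to 4, 9, 4, 6 and 7 of the 39 lay below it (23.1%, 10.3%, 15.4% and 17.9%), where 19.2%, 11.2%, 8.46% and 16.4% of all features did. Above it were 0, 3, 2 and 0 of the 39, against 4.57%, 7.21%, 10.9% and 7.65% of features. Genes below the interval on 3 arrays were eIF1, eIF4G1, eIF4E6, eIF2beta and eIF6, the last pair with replicate 2 on the other side of 0. The brightness of these probes is not known here, so the interval is a yardstick for size and not an error for each gene.

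**Figure D2:**
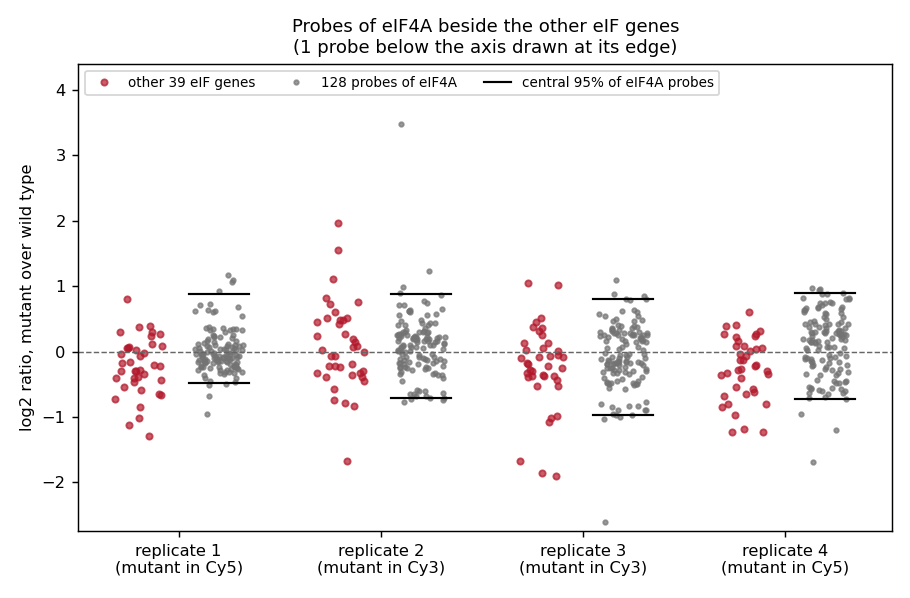
Log2 ratio of mutant over wild type (y axis) for the other 39 initiation factor genes (left, 1 point per gene) and the 128 probes of eIF4A (right) on each array (x axis); horizontal lines bound the central 95% of the eIF4A probes, and the probe at -7.78 on replicate 3 is drawn at the lower edge. Most genes of the family sit within the lines, and the points outside are mainly below. Features in general also lay more often below than above the lines on replicates 1, 2 and 4, and more often above on replicate 3.

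The eIF4A probes varied in an ordered way. Of the 128, 126 had IDs that fell into 42 stems, each with the same 3 endings, and 2 had unrelated IDs. Probes that shared a stem agreed closely, with a median SD of 0.04, 0.08, 0.07 and 0.12 on replicates 1 to 4. The medians of the stems spread far more, with an SD of 0.33, 0.38, 0.44 and 0.46, and on replicate 4 they ran from -0.73 to 0.90. Between the 3 sets of 42 probes, Spearman's rho over stems was at least 0.892, 0.871, 0.895 and 0.790 on replicates 1 to 4, and Pearson's r, which single extreme probes lower, was at least 0.882, 0.675, 0.341 and 0.669. No source used here says what a stem stands for, such as another oligonucleotide or another place on the slide. The stems are numbered in serial order, beside a second number that counts down and restarts. Numbered places on a slide could give such a pattern, but this was not tested.

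The order of the eIF4A probes was shared by the arrays with the mutant in Cy3 and ran the other way on replicate 4. Over the 128 probes, Spearman's rho was 0.821 between replicates 2 and 3, both with the mutant in Cy3, and -0.0845 between replicates 1 and 4, both with it in Cy5. Between arrays of opposite dye it was -0.635 for replicates 2 and 4, -0.601 for 3 and 4, 0.435 for 1 and 2, and 0.16 for 1 and 3. The corresponding Pearson's r was 0.356, 0.0142, -0.588, -0.199, 0.196 and 0.0472. These are descriptions over probes of 1 gene that share an array and its labelling.

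**Figure D3:**
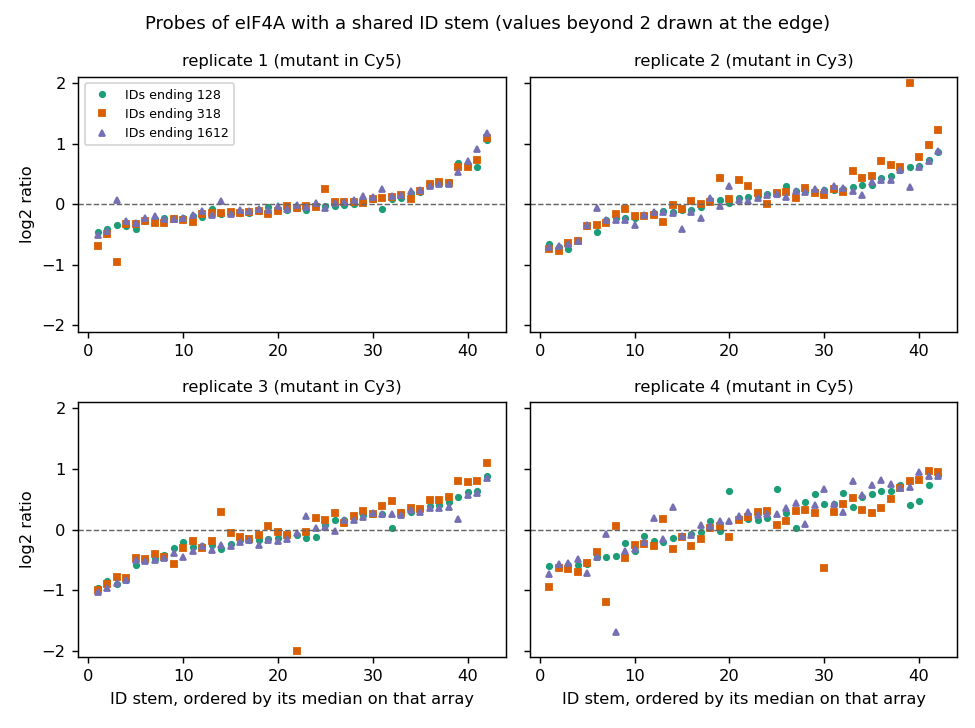
Log2 ratio (y axis) of the 126 eIF4A probes in 42 ID stems, ordered by the median of the stem on each array (x axis, a panel per array); the 3 symbols are the 3 ID endings, and values beyond 2 in size are drawn at the edge. The 3 probes of a stem mostly coincide while the stems climb from about -0.51 to 1.10 on replicate 1 and from -0.71 to 0.89 on replicate 2.

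Among factors of start codon choice and subunit joining, eIF1 and eIF5 were lower on every array without passing the test. The gene eIF1, whose product keeps the scanning ribosome open to reject wrong codons, had log2 ratios of -0.65, -0.83, -1.08 and -0.29 on replicates 1 to 4. All arrays were below 0, with a mean of -0.71 ± 0.33 (SD, n = 4; limma adjusted p = 0.129). The gene eIF5, which encodes the GTPase activator of eIF2, gave -0.40, -0.79, -0.53 and -0.34, likewise all below 0 (mean -0.51 ± 0.20; limma adjusted p = 0.181). Both were further from 0 with the mutant in Cy3 (-0.96 for eIF1 and -0.66 for eIF5) than with it in Cy5 (-0.47 and -0.37).

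The subunit-joining GTPase gene eIF5B was at -0.30, -0.35, -0.39 and 0.32, with replicate 4 alone above 0 (mean -0.18 ± 0.33; limma adjusted p = 0.632). The gene eIF6, whose product keeps the large subunit from joining too early and takes part in making it, was at -0.84, 0.76, -1.02 and -0.84. Here replicate 2 stood alone above 0, and the mean was -0.49 ± 0.83 (limma adjusted p = 0.456). Of these 4 genes 2 were therefore lower on all arrays (50%, against 14.9% of features).

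In the eIF2 group the genes below 0 on every array were subunits of eIF2B, the guanine nucleotide exchange factor. All 5 eIF2B subunit genes had a mean below 0, and 3 of the 5 were below 0 on all 4 arrays (60%, against 14.9% of features). The median of the 5 was -0.29, -0.39, -0.37 and -0.37 on replicates 1 to 4, a mean of -0.35 ± 0.04 (SD, n = 4), and it was below 0 with either dye. Their mean over genes varied more, at -0.40, -0.19, -0.30 and -0.46 (mean -0.34 ± 0.12). None of the 5 passed the test, and the smallest limma adjusted p among them was 0.207.

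The gene of the catalytic subunit eIF2Bepsilon gave -0.21, -0.39, -0.53 and -0.80 on replicates 1 to 4, all below 0 (mean -0.48 ± 0.25; limma adjusted p = 0.215). Its partner in catalysis, eIF2Bgamma, was the least variable subunit, at -0.30, -0.44, -0.38 and -0.21 (mean -0.33 ± 0.10; limma adjusted p = 0.304). The regulatory subunits alpha, beta and delta sense the phosphorylation of eIF2alpha. Among them eIF2Bbeta was at -1.01, -0.39, -0.37 and -0.37, with replicate 1 lowest and the others alike (mean -0.53 ± 0.32; limma adjusted p = 0.207).

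The other regulatory subunits crossed 0. The subunit eIF2Bdelta ran from -1.22 on replicate 4 to 0.51 on replicate 2 (mean -0.26 ± 0.72), and eIF2Balpha lay between -0.22 and -0.17 on replicates 1 to 3 and at 0.27 on replicate 4 (mean -0.08 ± 0.24). The beta subunit of the eIF2 trimer, eIF2beta, which contacts eIF5 and eIF2B, had log2 ratios of -1.12, 1.11, -0.99 and -0.97. Replicate 2 opposed the other 3 arrays, and the mean of -0.49 ± 1.07 does not stand apart from 0 (limma adjusted p = 0.529).

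The genes eIF2A and eIF2D belong to the group by name only, as their products deliver tRNA outside the eIF2 trimer. The ratio of eIF2A was 0.26, 0.20, 0.13 and 0.27, above 0 on every array with the smallest spread of the whole family (mean 0.21 ± 0.06; limma adjusted p = 0.479). That of eIF2D was -0.41 on replicate 1 and at most 0.17 on the others (mean -0.05 ± 0.26).

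The 16 eIF3 genes lay close to 0 as a group. Of them 3, eIF3c, eIF3d1 and eIF3e, were below 0 on all 4 arrays (18.8%, near the 14.9% of features). The core scaffold gene eIF3c gave -0.73, -0.33, -0.29 and -0.28, with replicate 1 lowest (mean -0.40 ± 0.22; limma adjusted p = 0.262). The gene eIF3d1, whose human counterpart can bind the mRNA cap, gave -0.59, -0.24, -0.19 and -0.69, lower on replicates 1 and 4 (mean -0.43 ± 0.25; limma adjusted p = 0.254). The gene eIF3e, also known as Int6, was at -0.07, -0.30, -0.36 and -0.22 (mean -0.24 ± 0.13; limma adjusted p = 0.451).

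The remaining core scaffold genes showed no one direction. The largest subunit gene, eIF3a, averaged 0.02 ± 0.25, and eIF3b averaged -0.16 ± 0.29. The genes eIF3g1 (-0.01 ± 0.17) and eIF3i (-0.12 ± 0.29), of the module at the mRNA entry side, were also near 0. Subunit genes of the outer part of the complex, eIF3f1 (-0.16 ± 0.18), eIF3h (-0.03 ± 0.32), eIF3l (-0.02 ± 0.44) and eIF3m (0.07 ± 0.21), had means within their SD of 0, and eIF3j, which encodes a loosely bound subunit, averaged -0.27 ± 0.31.

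The gene with the lowest eIF3 mean was eIF3k, and it was also the least repeatable of the 40. It gave 0.02, 0.82, -1.91 and -1.23 on replicates 1 to 4 (mean -0.57 ± 1.23; limma adjusted p = 0.518). The arrays with the mutant in Cy3 held both its highest and its lowest value. Its binding partner in the complex, eIF3l, was at -0.39, 0.26, 0.45 and -0.40 on the same arrays, so the partners had opposite signs on replicates 1 and 3.

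The eIF4 group held the lowest and the highest gene of the family, eIF4G1 and eIF4G2. The scaffold gene eIF4G1, which ties the cap-binding protein to eIF4A and eIF3, had log2 ratios of -0.67, -1.67, -1.86 and -0.27 on replicates 1 to 4. Every array was below 0, and the arrays with the mutant in Cy3 were much lower (mean -1.76) than those with it in Cy5 (mean -0.47). The mean of the 4 was -1.12 ± 0.77, a ratio of 0.461, and it did not pass (limma adjusted p = 0.136).

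The gene eIF4G2 encodes the eIF4G form that male germ cells need for meiosis. Its ratios were -0.18, 1.96, 1.02 and -0.58, above 0 on both arrays with the mutant in Cy3 and below 0 on both with it in Cy5 (mean 0.56 ± 1.16; limma adjusted p = 0.511). The difference of eIF4G2 minus eIF4G1 was 0.49, 3.63, 2.88 and -0.31, with replicate 4 alone below 0. Markers of testis and male germ line (11 of 15 listed had a probe) had medians of 0.38, 0.26, -0.05 and 0.28 on replicates 1 to 4. Of the 11 markers, 1 was above 0 on all arrays (9.09%, against 14.0% of features) and 0 below (against 14.9%). The part of these markers in the eIF4G2 values was not tested.

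The main cap-binding gene eIF4E1 had 2 probes that disagreed on the arrays with the mutant in Cy3. Their average was -0.44, -0.57, -0.44 and 0.40 on replicates 1 to 4 (mean -0.26 ± 0.45; limma adjusted p = 0.538). The first probe gave -0.45, -1.07, -1.12 and 0.50, and the second -0.42, -0.06, 0.24 and 0.30. On replicate 3 the probes thus had opposite signs, and no single value can stand for eIF4E1 there. The 2 probes of eIF4B, the helicase cofactor gene, kept closer together, at -0.21, 0.08, -0.18 and -1.13 and at -0.37, 0.04, 0.19 and -1.23. Their average was lowest on replicate 4, at -1.18, and its mean was -0.35 ± 0.57 (limma adjusted p = 0.482).

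Among the other cap-binding genes eIF4E6 stood lowest. Its ratios were -1.30, -0.73, -1.67 and 0.61, below 0 on replicates 1 to 3 and above on replicate 4 (mean -0.77 ± 0.998; limma adjusted p = 0.323). The copy eIF4E4 gave 0.80, 0.46, -0.10 and -0.04 (mean 0.28 ± 0.43; limma adjusted p = 0.502). Means of eIF4E5 (0.18 ± 0.26), eIF4E7 (0.12 ± 0.17), the testis form eIF4E3 (0.04 ± 0.45) and eIF4EHP (0.02 ± 0.61), which binds the cap without eIF4G and represses translation, were within their SD of 0. The cofactor gene eIF4H2 averaged 0.15 ± 0.39.

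Set side by side, the eIF2 group lay lower than the eIF3 and eIF4 groups on each array by its mean over genes. The mean over genes of the eIF2 group was -0.41, 0.04, -0.28 and -0.36 on replicates 1 to 4 (mean -0.25 ± 0.20, SD, n = 4). It was below 0 on 3 of 4 arrays and above 0 on replicate 2. Those of the eIF3 and eIF4 groups averaged -0.07 ± 0.18 and -0.09 ± 0.16. The median of the eIF2 group was -0.30, -0.14, -0.27 and -0.29 on replicates 1 to 4, a mean of -0.25 ± 0.07 (SD, n = 4), and was below 0 on 4 of 4 arrays. That of the eIF3 group was -0.01, 0.04, -0.20 and -0.18 (mean -0.09 ± 0.12), and that of the eIF4 group was -0.10, 0.25, -0.08 and -0.02 (mean 0.01 ± 0.16). By group means, eIF2 minus eIF3 was -0.29, -0.13, -0.20 and -0.09 (mean -0.18 ± 0.09), and eIF2 minus eIF4 was -0.29, -0.10, -0.03 and -0.22 (mean -0.16 ± 0.12).

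Both of these differences were below 0 on 4 of 4 arrays, and they are descriptions without a test. They rested on which genes were counted. Without the eIF2B subunits the median of the eIF2 group was 0.02, and the difference of means was -0.03 against eIF3 and -0.01 against eIF4. Without gene copies and factors outside the named complexes, eIF2 minus eIF4 was -0.05. The difference of eIF3 minus eIF4 had no settled sign, at 0.02 by group means, -0.10 by medians and 0.13 without those copies and factors. Genes below 0 on all 4 arrays were 3 of 8 in the eIF2 group (37.5%) and 3 of 16 in eIF3 (18.8%). They were 1 of 12 in eIF4 (8.33%) and 2 of 4 among the rest (50%), against 14.9% of features.

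**Figure D4:**
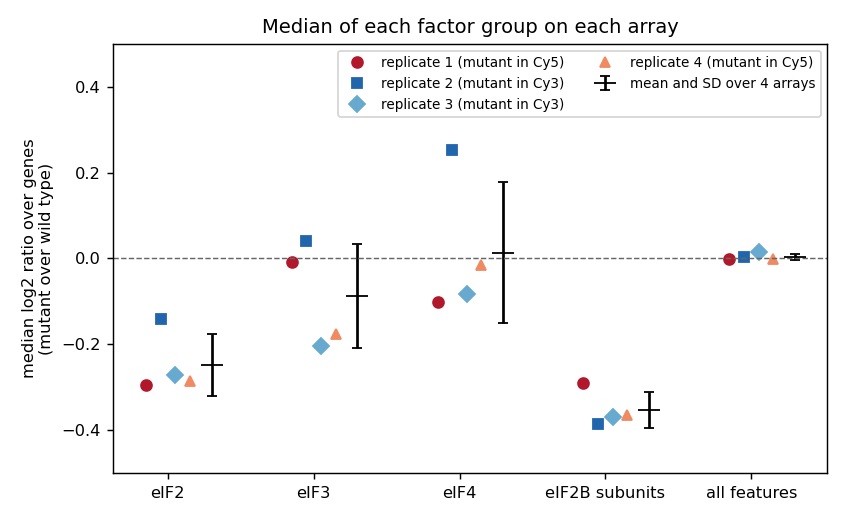
Median log2 ratio of mutant over wild type over the genes of each group (y axis) on each array, for the eIF2, eIF3 and eIF4 groups, the eIF2B subunits alone and all features (x axis); symbols are the 4 arrays, and bars show the mean and SD over them. The eIF2 and eIF2B medians are below 0 on every array, while those of eIF3 and eIF4 have replicate 2 above 0.

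Several factors exist in the fly as a widely used gene and a copy, and the copies of 3 eIF3 subunits had means above those of their partners. The copy eIF3d2 gave 0.23, 0.49, 0.36 and 0.22 on replicates 1 to 4, above 0 on every array (mean 0.33 ± 0.13; limma adjusted p = 0.32), whereas eIF3d1 was below 0 on every array. Their difference, eIF3d2 minus eIF3d1, was 0.82, 0.73, 0.55 and 0.91 (mean 0.75 ± 0.15), so the values of the copies did not overlap. This was chosen from among 9 such differences after their values were seen and has no test.

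The other eIF3 copies varied more. The copy eIF3f2 was at 0.07, 1.55, 1.04 and -0.65 (mean 0.50 ± 0.98; limma adjusted p = 0.496), and eIF3g2 was at -0.16, 0.73, 0.51 and 0.09 (mean 0.29 ± 0.40; limma adjusted p = 0.472). Differences from their partners were above 0 on 3 of 4 arrays each, with means of 0.66 ± 1.16 for eIF3f2 minus eIF3f1 and 0.31 ± 0.44 for eIF3g2 minus eIF3g1. Without the 3 copies, the median of the eIF3 group averaged -0.15 ± 0.11. Of those 13 genes 3 were below 0 on all arrays (23.1%, against 14.9% of features) and 0 above (against 14.0%). Among cap-binding genes the difference from eIF4E1 was above 0 on 3 of 4 arrays for eIF4E3, eIF4E4, eIF4E5 and eIF4E7 by the average of the eIF4E1 probes, and on 2 of 4 by its second probe alone. These differences share eIF4E1 and are not independent of each other. That of eIF4E6 was above 0 on 1 of 4 arrays by the average. Copies resemble each other in sequence, so a probe may take up RNA of both.

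**Figure D5:**
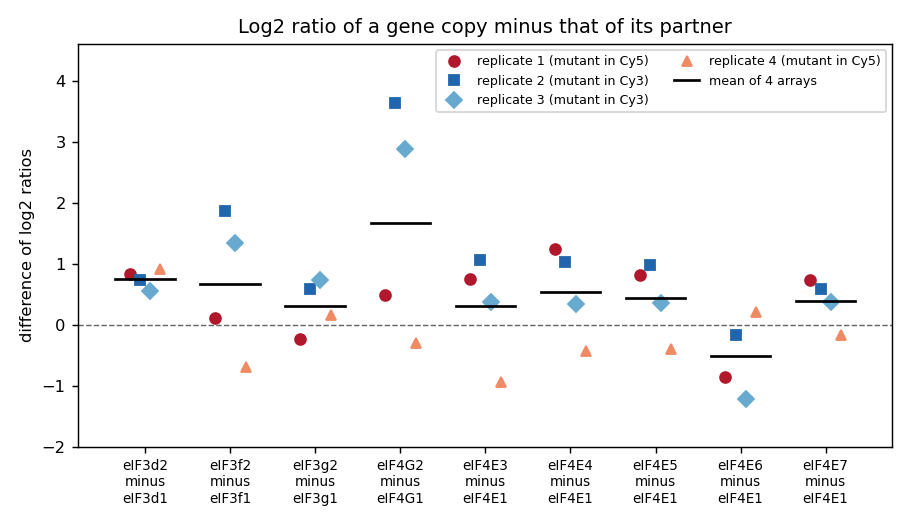
Log2 ratio of a gene copy minus that of its partner (y axis) for 9 copies (x axis), with eIF4E1 as the average of its 2 probes; symbols are the 4 arrays, coloured by the dye of the mutant sample, and bars are their mean. All arrays are above 0 for eIF3d2 minus eIF3d1, between 0.55 and 0.91, while replicate 4 is below 0 for 6 of the other differences.

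Of the listed regulators that act on the mRNA cap and poly(A) tail, 1 fell and 4 lay above 0 on all arrays without passing the test. The gene cup, which encodes an eIF4E-binding repressor, fell, with ratios of -1.25, -0.95, -1.28 and -0.99 (mean -1.12 ± 0.17; limma adjusted p = 0.0492). It was 1 of 11 measured regulators of cap and poly(A) tail, of which 0 rose, where 0.425% of features were called lower and 0.396% higher. The call was lost without any of the 4 replicates (limma adjusted p from 0.0554 to 0.217), under scale normalization (0.0522), under quantile normalization (0.0546), with a dye term (0.0633) and with probes tested singly (0.0516).

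Of the 11 regulators, 4 were above 0 on all 4 arrays (36.4%, against 14.0% of features) and 2 below (18.2%, against 14.9%). Paip2, which encodes an antagonist of the poly(A)-binding protein, was at 0.43, 1.46, 1.81 and 0.71 (mean 1.10 ± 0.64; limma adjusted p = 0.111). Lk6, the eIF4E kinase gene, was at 0.37, 1.16, 1.30 and 0.44 (mean 0.82 ± 0.48; limma adjusted p = 0.136). Both were highest on the arrays with the mutant in Cy3. The others above 0 on all arrays were Pdcd4 (0.81 ± 0.51), whose mammalian counterpart inhibits eIF4A, and mxt (0.58 ± 0.32), which encodes an eIF4E-binding protein. The poly(A)-binding protein gene pAbp was at 0.23, -0.14, -0.43 and 0.89, with no one direction (limma adjusted p = 0.792).

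Genes of the integrated stress response and the TOR pathway, which control eIF2 and eIF4E, had 0 of 13 measured members past the test, and 4 above 0 on all arrays (30.8%, against 14.0% of features). Those were REPTOR (0.76, 0.58, 0.60 and 1.05; limma adjusted p = 0.0955) and REPTOR-BP (0.99, 0.47, 0.71 and 0.52; limma adjusted p = 0.12), transcription factor genes of the response to low TOR activity, together with Gcn2 (0.09, 0.42, 0.42 and 0.78; limma adjusted p = 0.265), an eIF2alpha kinase gene, and crc (0.40, 0.19, 0.20 and 0.60; limma adjusted p = 0.314), the fly ATF4 gene. The kinase gene mTor was the 1 member below 0 on all arrays, at -0.41, -0.36, -0.45 and -0.16 (limma adjusted p = 0.298). The other eIF2alpha kinase gene, PEK, was at 0.07, -0.03, 0.02 and -0.18, and S6k at 0.45, 0.01, 0.01 and -0.06, both near 0. Thor, which encodes the fly 4E-BP, had no probe of its own name and was not analysed here.

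In the later steps of translation, of 9 measured genes of elongation and termination 1 fell and 0 rose, against 0.425% and 0.396% of features. That was eRF3, the GTPase gene of termination, at -1.15, -0.94, -1.15 and -1.03 (mean -1.07 ± 0.10; limma adjusted p = 0.0492), whose call was lost under the same settings as that of cup (0.0522, 0.0546, 0.0633 and 0.0516 in the same order, and 0.0554 to 0.22 without a replicate). Next by p were the elongation factor gene eEF1delta (-0.93 ± 0.74, and -0.57 without replicate 4; limma adjusted p = 0.178) and the ribosome rescue gene pelo (-0.75 ± 0.65; limma adjusted p = 0.215).

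Of 11 cytosolic aminoacyl-tRNA synthetase genes 0 passed and 8 were below 0 on all arrays (72.7%, against 14.9% of features), with a median of -0.53 ± 0.26 over the arrays, and alpha-PheRS was at -0.75 ± 0.04, beta-PheRS at -0.82 ± 0.28 and AlaRS at -0.74 ± 0.30. Of 39 cytoplasmic ribosomal protein genes 0 passed, 5 were below 0 on all arrays (12.8%, near the 14.9% of features) and 1 above, with a median of -0.19 ± 0.21, and RpL28 was at -1.23 ± 1.03 (-0.77 without replicate 3), RpL10Aa at 0.86 ± 0.69 and RpS20 at -0.53 ± 0.29. Of 8 genes of mitochondrial initiation, elongation and release 0 passed and 4 were below 0 on all arrays (50%, against 14.9% of features), with a median of -0.31 ± 0.23, and mEFTu1 was at -0.56 ± 0.21, mEFTs at -0.69 ± 0.62 and mRRF1 at -0.55 ± 0.46 (-0.35 without replicate 4). The eIF median of -0.14 ± 0.12 lay closest to that of the ribosomal protein genes as an average over the arrays only. On replicates 1 to 4 the ribosomal protein medians were -0.09, -0.29, -0.41 and 0.05, and the eIF medians -0.21, 0.04, -0.18 and -0.22. Their signs were opposite on replicates 2 and 4.

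Markers of larval tissues were measured on the same arrays, and their part in the values above was not tested. All 10 measured muscle markers had a mean below 0, where 6735 of 13891 features did, with array medians of -0.64, -0.74, -0.93 and -0.12. Of the 10, 8 were below 0 on all arrays (80%, against 14.9% of features). Of 5 fat body markers 1 fell and 0 rose, where 0.425% of features were called lower and 0.396% higher. That was Lsd-1 (-1.24 ± 0.22, limma adjusted p = 0.0455). Its call was lost without any of the 4 replicates (limma adjusted p from 0.0554 to 0.217) and with a dye term (0.0633). FASN1 was also below 0 on all arrays (-0.94 ± 0.30, limma adjusted p = 0.0748). The other 3 crossed 0, and among them Lsp2 ran from -6.44 to 3.91 and Fbp2 from -2.02 to 3.53. The set median of -0.55 ± 0.65 over the arrays does not show these swings. Markers of imaginal discs and proliferating cells had array medians from -0.63 to -0.02. Of these 10, 3 were below 0 on all arrays (30%, against 14.9% of features) and 0 above (against 14.0%). Those of the nervous system had array medians from 0.04 to 0.27. Of these 8, 2 were above 0 on all arrays (25%, against 14.0% of features) and 1 below (12.5%, against 14.9%). The 4 gut markers had array medians from -1.30 to 1.07.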

How the data were processed

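Total RNA was compared on 4 two-colour arrays with 1 mutant and 1 wild-type sample each. The deposited values were 1 log2 ratio per probe and array. The base was taken as 2 from their range, and no source used here states the image analysis, background correction, normalization or direction. The platform annotation, which can be old, gave 1 symbol for 12658 of the 14569 probes, several for 96 and none for 1815. All 40 genes matched the current gene table by symbol. Probes of a gene were averaged per array, giving 13891 features.

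A two-sided test of each feature against 0 used limma (version 3.58.1, under R 4.3.3). Calls were made at 0.05 after Benjamini-Hochberg adjustment. The steps were tested on simulated data. Tables and figures used Python 3.11.15, pandas 2.3.3, numpy 2.4.6 and matplotlib 3.10.9. Precision is limited by having 4 arrays. The p-values measure the spread between them after limma drew the variance of each feature toward that of all features (3.275 prior degrees of freedom). A p-value thus does not rest on the 4 values of its own gene alone.

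The genes and lists were chosen with earlier results of these data known. Values on each array are given for the 4 genes of smallest p, the highest and the lowest of each group, and eIF4A, eIF4E1 and eIF4G1. Those of eIF2beta, eIF3l, eIF3g2 and the probes of eIF4B were added after they were seen. Lists give their 3 genes of smallest p and preset regulators, and Pdcd4, mxt, Lsd-1, FASN1, Lsp2 and Fbp2 were named after their values were seen. Alternatives were scale and quantile normalization, centring, a dye term, array weights, probes tested singly, each dye orientation alone, the Cy3 arrays turned, each replicate left out and other memberships of the groups. The counts with the Cy3 arrays turned and the values by single probes of eIF4A and eIF4E1 were chosen after seeing the data.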

Additional observations from a re-analysis of the deposited data

Results flagged for a closer look

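On 7 of 40 initiation factor genes, 1 array lay far from the other 3 compared with the whole range of the 4. Chance alone marks about 1 in 20 such groups, and 9 of 68 examined sets of 4 values were marked. Replicate 2 stood out for eIF2beta (1.11) and eIF6 (0.76), both below 0 elsewhere, and for the median of the eIF2 group (-0.14). Replicate 4 stood out for eIF2Balpha (0.27), eIF4E1 (0.40) and eIF5B (0.32), all below 0 on the other arrays. Replicate 1 stood out for eIF2Bbeta (-1.01), eIF3c (-0.73) and the TOR target kinase gene S6k (0.45).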

How the results depend on the processing

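No initiation factor gene was called under 11 of 13 alternatives. Several of these called almost nothing among all 13891 features. The count was 0 with a dye term, with the Cy3 arrays turned and without replicate 1, and 4 with the mutant in Cy5 alone. It was 19, 17 and 21 without replicates 2, 3 and 4, so the absence of eIF calls in these settings says little. Array weights called 16 (11 lower, 5 higher), where 43.8% of features were called, and the arrays with the mutant in Cy3 alone called 4 (eIF1 and eIF4G1 lower, eIF3f2 and eIF4G2 higher), where 18.5% were. The cause was not tested. Without each replicate in turn the count stayed 0, eIF2 minus eIF3 ran from -0.21 to -0.14, eIF2 minus eIF4 from -0.20 to -0.11 and eIF3 minus eIF4 from -0.03 to 0.07. The eIF2 median was -0.39 without eIF2A and eIF2D (eIF2 minus eIF4 was -0.054 without these and the eIF4 copies) and 0.020 without eIF2B, where eIF2 minus eIF3 was -0.034 and eIF2 minus eIF4 -0.014. Had the Cy3 arrays not been turned already, the eIF2 median would be -0.042 and eIF2 minus eIF3 -0.011, the eIF4 median -0.072, eIF3 minus eIF4 -0.085, cup -0.00061 and eRF3 -0.022, neither of them called. Signs would then be reversed for eIF1 (0.24), eIF2Bgamma (0.078), eIF3d2 (-0.10), eIF3e (0.092), eIF3f2 (-0.79), eIF4E1 (0.24), eIF4E6 (0.43), eIF4G1 (0.65), eIF4G2 (-0.94), eIF5 (0.15), eIF5B (0.19), Invadolysin (-0.035), Lk6 (-0.41), Lsd-1 (0.024), Paip2 (-0.53), RpL10Aa (-0.48), RpL28 (0.78), RpS20 (0.18), AlaRS (0.24), alpha-PheRS (0.033), beta-PheRS (0.24), mEFTs (0.47), mTor (0.062) and pelo (0.47). Array weights reversed eIF3k (0.17), eIF6 (0.25) and pAbp (-0.14). The arrays with the mutant in Cy3 alone reversed eIF4A (-0.0076), eIF4B (0.035) and pAbp (-0.29), and those with it in Cy5 alone reversed eIF3f2 (-0.29), eIF4G2 (-0.38) and eIF5B (0.0079). Leaving out a replicate reversed S6k (-0.013 to 0.15), PEK (-0.064 to 0.019), eIF4A (-0.0012 to 0.069) and pAbp (-0.11 to 0.33). Each ratio sets the mutant against the wild-type sample of its own array, so every test was paired by array and no unpaired fit was run.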

Other observations

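By chromosome arm, the 5 eIF genes on X had a median of gene means of -0.48, with 3 of 5 below 0 on all 4 arrays, where 14.9% of features were. Those 3 were eIF2Bbeta, eIF2Bepsilon and eIF5. The share is over features of all arms, and whether features on X lie lower in general was not examined. The 9 on 2R had a median of -0.27 with 2 below on all arrays, the 11 on 3L -0.18 with 2, the 11 on 3R 0.02 with 1 and the 3 on 2L -0.03 with 0. The 1 gene on chromosome 4 was eIF4G1.

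The 2 probes of eIF4A outside the repeated series gave -0.17, -0.68, -0.96 and 0.25 and 0.36, 0.01, -0.14 and 0.29 on replicates 1 to 4. Their mean of -0.13 and that of all 128 probes, 0.03, differed in sign.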
